A study of Mus musculus with 6 samples.

Results

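The voltage-gated sodium channel genes described here were Scn1a, Scn2a, Scn3a and Scn8a, which encode pore-forming alpha subunits, and Scn2b, Scn3b and Scn4b, which encode auxiliary beta subunits. They were taken by gene name, and the list was set with earlier results of these data known. They made up 7 of the 47729 genes and 53 of the 115220 transcripts in the deposited table. Scn2a is listed in that table under the older symbol Scn2a1 and was matched by its gene identifier, ENSMUSG00000075318.

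Ribosome-associated RNA was sequenced in 3 Ctrl and 3 Gsk3sKO in mPFC D2 libraries, the latter written Gsk3sKO from here on, to ask how loss of the kinase GSK3β alters the translatome of dopamine D2 receptor neurons in the medial prefrontal cortex (mPFC). All mice were C57BL/6 males of 2.5 to 3 months that carried D2Cre, LSL-Flag-Cas9 and RiboTag. In both groups, therefore, Cas9 and an Rpl22 ribosomal subunit with a hemagglutinin tag were made in cells in which the D2Cre transgene drives Cre. Ctrl mice received AAV GFP in the mPFC and Gsk3sKO mice received AAV Gsk3sgRNA/GFP, which adds the Gsk3b guide RNA, and tissue was taken 3 weeks later for immunoprecipitation of the tagged ribosomes. Cells that the virus did not reach still carry tagged ribosomes and an intact Gsk3b gene. The sources used here do not say whether a library stands for 1 mouse or for a pool, so p-values here reflect only library-to-library spread, part or all of which may be technical.

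Values are FPKM, which divides the fragments of a transcript by its length and by the depth of the library, and a gene total is the sum over the listed transcripts of a gene. Gsk3b, the targeted gene, was at 35.6, 53.8 and 56.5 FPKM in Ctrl replicates 1 to 3 and at 36.9, 37.0 and 33.6 FPKM in Gsk3sKO replicates 1 to 3. Ctrl replicate 1 lay inside the Gsk3sKO range, and the log2 fold change was -0.40 ± 0.19 (SE; limma with Benjamini-Hochberg adjusted p = 0.773). Without Ctrl replicate 1 it was -0.61 and Gsk3b was called as lower (limma unadjusted p = 0.00279). These are RNA values, and GSK3β protein was not measured in these libraries. In mice without RiboTag, the paper reports that most mPFC neurons with both Cas9 and the guide RNA lacked GSK3β staining. Drd2, which encodes the D2 receptor, was low and spread widely within Ctrl, at 1.58, 6.02 and 14.1 FPKM, against 8.32, 5.96 and 7.28 FPKM in Gsk3sKO. The neuronal marker list (Snap25, Syt1, Rbfox3) summed to between 1564 and 1801 FPKM over the 6 libraries. Inhibitory markers summed to between 935 and 1318 FPKM, excitatory markers to between 358 and 408, oligodendrocyte markers to between 103 and 162, astrocyte markers to between 49.8 and 70.9, endothelial markers to between 8.999 and 29.5 and microglial markers to between 9.34 and 16.2. Markers of oligodendrocyte precursors summed to between 1.603 and 8.17 FPKM. None of these summed levels separated the groups. The short RNA Gm23935 took 24.3%, 24.9% and 12.9% of all FPKM in Ctrl and 13.4%, 12.2% and 7.80% in Gsk3sKO, and the groups overlapped.

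Voltage-gated sodium channels open when a neuron is depolarised and carry the inward current of the action potential. The alpha subunit forms the pore and the voltage sensors. Scn1a is best known for its role in inhibitory interneurons, Scn2a and Scn8a for their place at the axon initial segment of excitatory cortical neurons, and Scn3a for its high level before birth. Beta subunits cross the membrane once, alter gating and surface expression, and act as adhesion molecules. The products of Scn2b and Scn4b are joined to the alpha subunit by a disulfide bond, and that of Scn3b is bound without one.

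The members lie on 3 chromosomes of the GRCm38 genome. Scn3a (chr2:65457118-65567627, minus strand), Scn2a (chr2:65620771-65767447, plus strand) and Scn1a (chr2:66270778-66440840, minus strand) are neighbours on chromosome 2. Scn3b (chr9:40269217-40291618), Scn2b (chr9:45117782-45130070) and Scn4b (chr9:45138395-45154152) are on the plus strand of chromosome 9, and Scn8a (chr15:100869858-101045938) is on the plus strand of chromosome 15. The genes that overlap Scn1a, Scn3a and Scn2b lie on the opposite strand, share no exon with them and were at 0 FPKM, and the one that overlaps Scn3b shares no exon with it.

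Scn2a, Scn3a, Scn8a and Scn1a each have a coding exon of 92 bases that encodes the same stretch of the voltage sensor of the first channel domain. It is shown because it is alike between the genes, and reads that lie wholly inside it fit Scn2a and Scn3a equally. It is the last coding exon of that length in each gene, and whether every transcript carries it was not tested. Transcripts of equal coding length, such as Scn2a-205 and Scn2a-201, can differ in their coding exons. Capitals mark the bases that differ from the Scn2a exon, and all are given 5′ to 3′ on the strand of the gene, from the GENCODE M21 transcripts of GRCm38. The exon is at chr2:65682690-65682781 in Scn2a, at chr2:65525695-65525786 in Scn3a, at chr15:100959603-100959694 in Scn8a and at chr2:66332207-66332298 in Scn1a.
Scn2a exon: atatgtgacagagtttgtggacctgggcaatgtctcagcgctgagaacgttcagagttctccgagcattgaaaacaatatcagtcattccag
Scn3a exon: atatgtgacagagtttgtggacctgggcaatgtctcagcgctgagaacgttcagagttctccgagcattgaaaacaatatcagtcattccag
Scn8a exon: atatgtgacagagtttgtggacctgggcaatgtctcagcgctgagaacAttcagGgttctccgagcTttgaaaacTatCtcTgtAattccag
Scn1a exon: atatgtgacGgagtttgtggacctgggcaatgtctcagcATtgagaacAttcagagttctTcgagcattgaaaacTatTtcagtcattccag
The Scn2a and Scn3a exons had 0 differences. The Scn8a and Scn1a exons each differed from these at 7 bases and from each other at 9. How the authors' assembler divided reads that fit more than 1 of these genes is not given in the sources used here, so values that rest on this exon are uncertain.

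Sodium channel gene totals were mostly slightly above Ctrl in Gsk3sKO, but no gene passed the test against the spread between libraries. All 7 gene totals passed the filter of a mean of at least 1 FPKM over the 6 libraries, and 6 of the 7 had a log2 fold change above 0, against 41.1% of the 12874 gene totals tested. The median over the 7 was 0.20 and that over all gene totals tested was -0.06. In limma, 0 of the 7 were called at an unadjusted p under 0.05, where 6.56% of all gene totals were called. These were 175 higher in Gsk3sKO (1.36%) and 669 lower (5.2%). None of the 7 had a Benjamini-Hochberg adjusted p under 0.05 in limma, as 6 of all gene totals did (0.0466%). After each library was rescaled by its median ratio, the calls over all gene totals were 276 higher and 528 lower, the members had a median of 0.26 and 6 of the 7 remained above 0. In 1 member, Scn2a, every Gsk3sKO library was above every Ctrl library. The groups were apart in either direction in 1545 of all gene totals (12%), and higher in Gsk3sKO in 3.71%. Fold changes here and below are on the log2(FPKM + 1) scale, which understates the change of low genes, and fewer cells of a type cannot be told apart from less RNA per cell.

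Scn2a was the most abundant member and the only one whose groups did not overlap. It was at 122, 115 and 125 FPKM in Ctrl libraries and at 140, 130 and 180 FPKM in Gsk3sKO. Every Gsk3sKO library was above every Ctrl library, with Gsk3sKO replicate 3 far above the others. The means were 121 ± 5.49 and 150 ± 26.4 FPKM (SD, n = 3 each). The log2 fold change was 0.30 ± 0.15 (SE), with a 95% interval from -0.05 to 0.64 (limma, Benjamini-Hochberg adjusted p = 0.790, unadjusted p = 0.0822). Without Gsk3sKO replicate 3 it was 0.16, and without Gsk3sKO replicate 2 it was 0.39 and the gene was called (unadjusted p = 0.0490).

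Scn8a, the other main alpha subunit of mature axons, was at 65.0, 62.1 and 61.0 FPKM in Ctrl libraries and at 71.7, 73.6 and 62.5 FPKM in Gsk3sKO. Gsk3sKO replicates 1 and 2 were above all Ctrl libraries and replicate 3 was inside their range. The log2 fold change was 0.14 ± 0.13 (SE; limma, Benjamini-Hochberg adjusted p = 0.872), with a 95% interval from -0.15 to 0.43, and was 0.21 without Gsk3sKO replicate 3. Scn1a was at 13.0, 17.6 and 17.8 FPKM in Ctrl libraries and at 18.3, 17.3 and 20.1 FPKM in Gsk3sKO, so that only Ctrl replicate 1 stood below the rest. Its log2 fold change of 0.20 ± 0.18 (SE; limma, Benjamini-Hochberg adjusted p = 0.867) was 0.06 without that library. Scn3a, low in adult cortex, was at 6.96, 6.99 and 8.12 FPKM in Ctrl libraries and at 8.33, 6.01 and 6.99 FPKM in Gsk3sKO. The Gsk3sKO libraries spread more widely and held the Ctrl range, and the log2 fold change was -0.05 ± 0.20 (SE; limma, Benjamini-Hochberg adjusted p = 0.971).

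Scn2b was the second most abundant member, at 66.9, 73.9 and 81.8 FPKM in Ctrl libraries and at 79.8, 85.0 and 79.1 FPKM in Gsk3sKO. Ctrl replicate 3 lay inside the Gsk3sKO range. The log2 fold change was 0.13 ± 0.13 (SE; limma, Benjamini-Hochberg adjusted p = 0.876), with a 95% interval from -0.16 to 0.43. Leaving out Ctrl replicate 1 gave 0.06, and leaving out Ctrl replicate 3 gave 0.21. Scn3b was at 7.38, 6.72 and 11.6 FPKM in Ctrl libraries and at 8.46, 15.8 and 19.5 FPKM in Gsk3sKO. Gsk3sKO replicates 2 and 3 were above all Ctrl libraries, and replicate 1 was below the highest of them. Its log2 fold change, 0.67 ± 0.32 (SE), was the largest of the members (limma, Benjamini-Hochberg adjusted p = 0.779, unadjusted p = 0.0691), and its 95% interval from -0.07 to 1.40 was wide. It was called without Ctrl replicate 3 (0.88, unadjusted p = 0.0323) and without Gsk3sKO replicate 1 (0.99, unadjusted p = 0.00743), and was 0.43 without Gsk3sKO replicate 3.

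Scn4b varied more within Ctrl than between the groups. It was at 2.64, 5.33 and 9.05 FPKM in Ctrl libraries and at 8.33, 8.61 and 8.12 FPKM in Gsk3sKO. The 3 Gsk3sKO libraries were within 0.5 FPKM of each other and below the highest Ctrl library. The log2 fold change was 0.61 ± 0.35 (SE; limma, Benjamini-Hochberg adjusted p = 0.792), with a 95% interval from -0.18 to 1.40. Leaving out Ctrl replicate 1 gave 0.23. Leaving out Ctrl replicate 3 gave 0.96, and the gene was then called (unadjusted p = 0.0131). Drd2 followed the same order within Ctrl, with 1.58 FPKM in replicate 1 and 14.1 FPKM in replicate 3, and the part of D2 cell content in the Scn4b values was not tested.

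**Figure D1:**
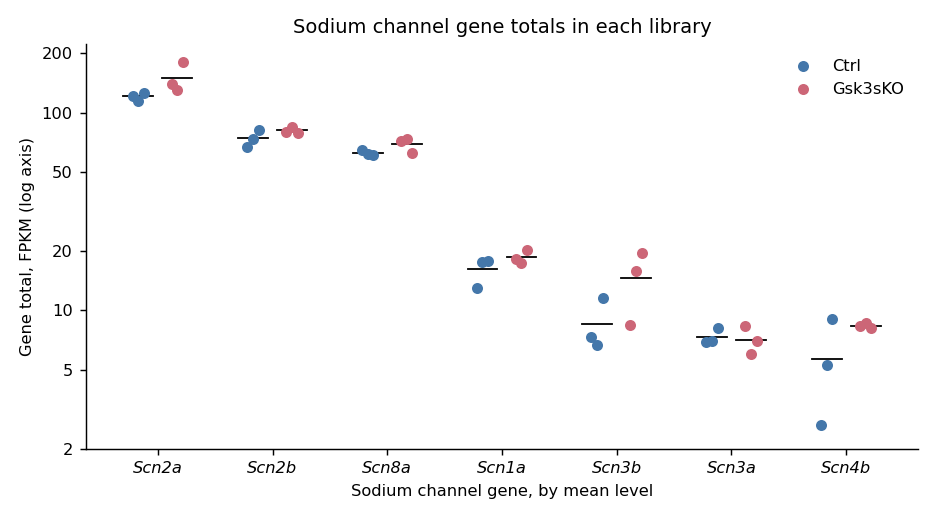
Gene total of each sodium channel gene in FPKM (log axis) in 3 Ctrl (blue) and 3 Gsk3sKO (red) libraries, genes ordered by mean level, with a bar at each group mean. Scn2a is highest, with all 3 Gsk3sKO libraries above the 3 Ctrl libraries, and Scn4b and Scn3b show the widest spread between libraries.

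FPKM is scaled to length, so levels can be set side by side between genes within a library. Over the 6 libraries Scn2a was at 135 ± 23.4 FPKM (SD), Scn2b at 77.7 ± 6.45, Scn8a at 66.0 ± 5.36, Scn1a at 17.3 ± 2.36, Scn3b at 11.6 ± 5.12, Scn3a at 7.23 ± 0.859 and Scn4b at 7.01 ± 2.52. Scn2a stood at percentile 97.1 of the gene totals tested, Scn2b and Scn8a at 94.0 and 92.6, and Scn4b at 43.8. Each of the first 4 steps in this order, from Scn2a down to Scn3b, was in the same direction in 6 of 6 libraries (exact sign-flip permutation test, 2-sided p = 0.03125, the smallest that 6 pairs allow, and 0.0469 adjusted over the 6 steps). When only transcripts with a mean of at least 1 FPKM were summed, 3 of these steps kept their direction in 6 of 6 libraries, since Scn1a was then at 15.3 FPKM and Scn3b at 15.5 FPKM in Gsk3sKO replicate 2 (exact permutation p = 0.0625). The step from Scn2b to Scn8a was small, between 1.03 and 1.34-fold, whereas Scn8a exceeded Scn1a by between 3.10 and 5.01-fold. Scn3b was above Scn3a in 5 of 6 libraries (exact permutation p = 0.0938) and Scn3a above Scn4b in 3 of 6 (exact permutation p = 0.719), so the order of the last 3 genes did not exceed their spread.

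Total alpha subunit RNA was higher in Gsk3sKO with no overlap between the groups. The 4 alpha genes summed to 207, 201 and 212 FPKM in Ctrl and to 239, 227 and 269 FPKM in Gsk3sKO, or 207 ± 5.47 and 245 ± 22.1 (SD, n = 3 each; exact permutation test, 2-sided p = 0.1, the smallest that 3 against 3 libraries allow). When only transcripts with at least 90% of the longest coding sequence of the gene were summed, the groups overlapped, at 167, 170 and 201 FPKM in Ctrl and 213, 185 and 196 FPKM in Gsk3sKO (exact permutation p = 0.3). This sum was added after the data were seen. The highest of the transcripts left out was a short one of Scn2a, described further on, whose annotation may be incomplete.

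No alpha gene had a share of the alpha sum that separated the groups. Scn2a supplied 58.3 ± 1.19% of it in Ctrl and 60.9 ± 5.09% in Gsk3sKO (SD, n = 3 each; exact permutation p = 0.6), Scn8a 30.3 ± 1.42% and 28.6 ± 4.81%, Scn1a 7.81 ± 1.34% and 7.58 ± 0.0973%, and Scn3a 3.55 ± 0.243% and 2.91 ± 0.502%. Only Gsk3sKO replicate 3 stood apart, with 66.7% from Scn2a and 23.2% from Scn8a. The 3 beta genes summed to 76.9, 85.9 and 102 FPKM in Ctrl and to 96.6, 109 and 107 FPKM in Gsk3sKO, with Ctrl replicate 3 inside the Gsk3sKO range (exact permutation p = 0.2). Scn2b supplied 84.3 ± 3.86% of the beta sum in Ctrl and 78.1 ± 4.27% in Gsk3sKO (SD, n = 3 each; exact permutation p = 0.2). The ratio of alpha to beta sums was 2.37 ± 0.311 in Ctrl and 2.36 ± 0.248 in Gsk3sKO (SD, n = 3 each; exact permutation p = 0.9).

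At the level of single transcripts, the calls fell in Scn1a and Scn2b, whose gene totals differed little. Their transcripts did not all have the larger differences: Scn2b-202 was called at a log2 fold change of 0.84, while Scn2a-204 was not called at 1.01. Of the 53 member transcripts, 4 were listed at 0 in all libraries and 22 passed the filter of a mean of at least 1 FPKM. Of these, 7 had a mean under 1 FPKM in 1 of the groups and so passed through the other, among them Scn1a-201 and Scn2b-201, which were at 0 in all libraries of 1 group. In limma 2 of the 22 were higher and 1 was lower in Gsk3sKO at an unadjusted p under 0.05, where 5.56% of all 21584 transcripts tested were called (390 or 1.81% higher and 810 or 3.75% lower). Scn1a-201 and Scn2b-201 are among these 3, so the count is a description only. None of the 22, and none of all transcripts tested, had a Benjamini-Hochberg adjusted p under 0.05 (1200 had an unadjusted p under 0.05, and without limma's moderation 4 passed the adjusted threshold). The groups did not overlap in 2 of the 22, both higher in Gsk3sKO, against 11.2% of all transcripts tested in either direction and 4.28% higher. Scn1a-201 is 1 of these 2 and passed the filter through Gsk3sKO libraries alone, so this count too is a description only. Single transcripts moved far more between libraries than gene totals. In 14 of the 22 the highest library was at least 10-fold above the lowest or the lowest was at 0, as in 43.0% of all transcripts tested, whereas this was so for 0 of the 7 member gene totals and 7.22% of all gene totals.

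**Figure D2:**
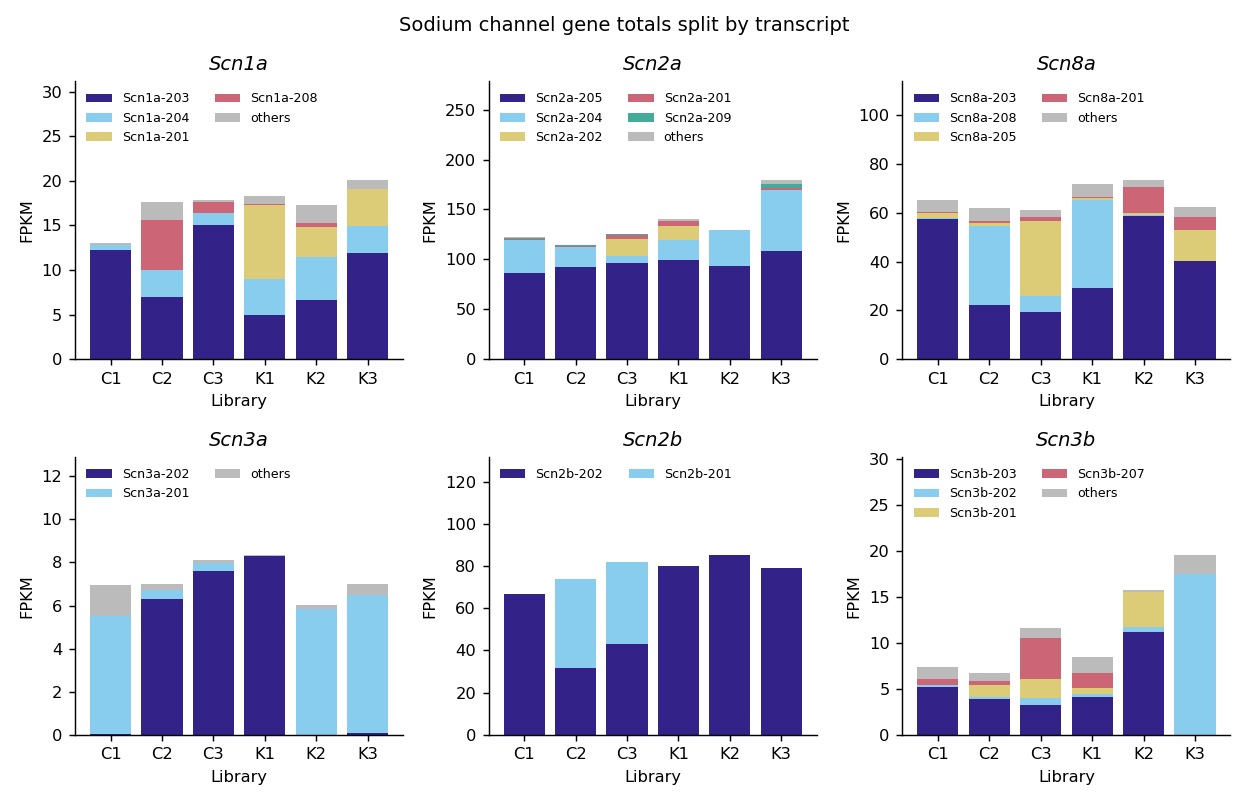
Stacked FPKM of the transcripts of 6 sodium channel genes in Ctrl replicates 1 to 3 (C1 to C3) and Gsk3sKO replicates 1 to 3 (K1 to K3), where a bar's full height is the gene total. The transcripts that fill the bars change from library to library, and Scn1a-201 (yellow) fills part of the bar in K1 to K3 but in none of C1 to C3. Bar height also differs, in Scn3b from 6.72 FPKM in C2 to 19.5 FPKM in K3 and in Scn2a from 115 FPKM in C2 to 180 FPKM in K3.

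Scn1a transcripts included some listed above 0 in the Gsk3sKO libraries alone. Scn1a-201 (ENSMUST00000077489) was listed at 0 in all 3 Ctrl libraries and at 8.33, 3.37 and 4.19 FPKM in Gsk3sKO replicates 1 to 3. It passed the filter through the Gsk3sKO libraries alone, so its test is not given. An exact 0 can be a failed estimate, and the gene total in these Ctrl libraries was between 13.0 and 17.8 FPKM. Scn1a-203 (ENSMUST00000112366), the leading transcript, was at 12.2, 6.99 and 15.1 FPKM in Ctrl libraries and at 4.97, 6.69 and 11.95 FPKM in Gsk3sKO. The 2 groups overlapped, and its log2 fold change was -0.51 ± 0.40 (SE; limma, Benjamini-Hochberg adjusted p = 0.890). Scn1a-204 (ENSMUST00000112371) was at 0.536, 3.001 and 1.28 FPKM in Ctrl libraries and at 3.99, 4.74 and 2.98 FPKM in Gsk3sKO, so Ctrl replicate 2 was just above the lowest Gsk3sKO library (1.01 ± 0.45, SE; limma, Benjamini-Hochberg adjusted p = 0.842). Its unadjusted p was between 0.0249 and 0.164 when 1 library was left out. Scn1a-206 (ENSMUST00000138910), a short coding transcript below the filter, was listed at 0 in Ctrl and at 0.536, 0.519 and 0.657 FPKM in Gsk3sKO. Scn1a-208, a transcript annotated for nonsense-mediated decay, was at 5.59 FPKM in Ctrl replicate 2 and at most 1.29 FPKM in the other 5 libraries.

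In Scn2b a pair of transcripts differed in opposite directions, while the gene total differed little. Scn2b-202 (ENSMUST00000170998) was at 66.9, 31.8 and 42.9 FPKM in Ctrl libraries and at 79.8, 85.0 and 79.1 FPKM in Gsk3sKO, with no overlap. Its log2 fold change was 0.84 ± 0.27 (SE), with a 95% interval from 0.19 to 1.48 (limma, Benjamini-Hochberg adjusted p = 0.819, unadjusted p = 0.0190). Scn2b-201 (ENSMUST00000093855) was listed at 0 in Ctrl replicate 1, at 42.0 and 38.9 FPKM in Ctrl replicates 2 and 3, and at 0 in all 3 Gsk3sKO libraries. It passed the filter through Ctrl libraries alone, so its test is not given. Ctrl replicate 1 thus held the same single transcript as the Gsk3sKO libraries, and Scn2b-202 made up 100%, 43.1% and 52.4% of the gene total in Ctrl against 100% in each Gsk3sKO library (exact permutation p = 0.4). Both transcripts have the same 645 coding bases. They differ in that Scn2b-201 removes an intron of 597 bases that lies after the end of the coding sequence and is kept in Scn2b-202. The call for Scn2b-202 was lost without moderation (unadjusted p = 0.0524), without Ctrl replicate 3 (unadjusted p = 0.0533) and without Gsk3sKO replicate 2 (unadjusted p = 0.0537).

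In Scn2a the leading transcript, Scn2a-205 (ENSMUST00000200829, 6018 coding bases), was at 86.3, 92.1 and 96.3 FPKM in Ctrl libraries and at 99.5, 92.9 and 108 FPKM in Gsk3sKO. The groups overlapped slightly, with Gsk3sKO replicate 2 inside the Ctrl range, and the log2 fold change was 0.13 ± 0.12 (SE; limma, Benjamini-Hochberg adjusted p = 0.892). Scn2a-204 (ENSMUST00000144254) is annotated as a short transcript of 1810 bases with 11 exons. Its 1514 coding bases are not a whole number of codons, so the annotation may be incomplete. Whether its reads came from full-length transcripts was not tested. Scn2a-204 was at 32.6, 20.5 and 7.09 FPKM in Ctrl libraries and at 19.7, 36.1 and 61.1 FPKM in Gsk3sKO. It was highest in the same library, replicate 3, in which the Scn2a gene total was highest. Its log2 fold change was 1.01 ± 0.62 (SE; limma, Benjamini-Hochberg adjusted p = 0.872). Without it and the other transcripts that are not full-length, Scn2a summed to 87.3, 92.8 and 118 FPKM in Ctrl and to 119, 93.4 and 111 FPKM in Gsk3sKO, and the groups overlapped.

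Transcripts of Scn8a, Scn3a and Scn3b changed places between libraries of the same group. Scn8a-203 (ENSMUST00000108908) was at 57.5, 22.2 and 19.1 FPKM in Ctrl libraries and at 29.0, 58.5 and 40.4 FPKM in Gsk3sKO (0.48 ± 0.46, SE; limma, Benjamini-Hochberg adjusted p = 0.895). Of the fits that left out 1 library, it was called only in that without Ctrl replicate 1, its highest Ctrl library (0.96, unadjusted p = 0.0293). Scn8a-208 (ENSMUST00000200963) was at 0.392, 32.5 and 6.82 FPKM in Ctrl libraries and at 36.2, 0.551 and 0 FPKM in Gsk3sKO. It lacks an exon of 123 bases at chr15:101024261-101024383 and was high in 1 library of each group. Scn3a-202 (ENSMUST00000100069) was at 0.0520, 6.28 and 7.62 FPKM in Ctrl libraries and at 8.31, 0 and 0.0633 FPKM in Gsk3sKO. Where it was low, Scn3a-201 (ENSMUST00000066432) was high, at 5.44 FPKM in Ctrl replicate 1 and at 5.85 and 6.42 FPKM in Gsk3sKO replicates 2 and 3. In the other 3 libraries Scn3a-201 was between 0 and 0.441 FPKM.

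The higher Scn3b total in Gsk3sKO replicates 2 and 3 came from different transcripts. Scn3b-203 (ENSMUST00000171835), the leading one, was at 5.23, 3.90 and 3.25 FPKM in Ctrl libraries and at 4.15, 11.2 and 0.0190 FPKM in Gsk3sKO. Scn3b-202 (ENSMUST00000114956) was between 0.210 and 0.732 FPKM in 5 libraries and at 17.4 FPKM in Gsk3sKO replicate 3. Both have the same 645 coding bases, as does Scn3b-201, and summed over these 3 the level was 5.44, 5.39 and 6.05 FPKM in Ctrl and 5.06, 15.5 and 17.5 FPKM in Gsk3sKO. Scn4b has 1 listed transcript, Scn4b-201 (ENSMUST00000060125), so its transcript and gene total are the same values.

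Of 6 other sodium channel genes looked up here, only Nalcn passed the filter, and it was not called. Nalcn, a sodium leak channel, was at 13.8, 19.2 and 20.1 FPKM in Ctrl libraries and at 20.9, 20.6 and 21.4 FPKM in Gsk3sKO. The groups did not overlap, against 12% of all gene totals in either direction and 3.71% higher. Its log2 fold change was 0.25 ± 0.18 (SE; limma, Benjamini-Hochberg adjusted p = 0.839), and as low as 0.09 when 1 library was left out. Scn4a, a channel of skeletal muscle, Scn9a, Scn10a and Scn11a, channels of sensory neurons, and Scn7a were at most 0.714 FPKM in every library. The 4 genes for fibroblast growth factor homologous factors, which bind the channel's C terminus, all passed the filter and 0 were called. Among these, Fgf13 was highest, at 60.2 to 69.5 FPKM in Ctrl and 64.4 to 76.4 FPKM in Gsk3sKO, and Fgf12 was the only one whose groups did not overlap, against 12% of all gene totals, at 45.9, 49.97 and 53.3 FPKM in Ctrl and 58.0, 55.7 and 60.8 FPKM in Gsk3sKO.

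None of the genes of the axon initial segment and node, where the channels are anchored, was called. All 10 passed the filter and 4 had a log2 fold change above 0, with a median of -0.02. The highest, Sptan1, encodes a spectrin and ranged from 222 to 584 FPKM in Ctrl and from 237 to 544 FPKM in Gsk3sKO. Of 15 genes for channel regulators, such as ubiquitin ligases, calmodulins and kinases, 0 were called and 6 were above 0, with a median of -0.04. Calm2, a calmodulin gene and the highest of these, ranged from 2116 to 3361 FPKM in Ctrl and from 2224 to 3166 FPKM in Gsk3sKO. Csnk2b, the beta subunit of casein kinase 2, was the only regulator of the 15 whose groups did not overlap, against 12% of all gene totals, and was lower in Gsk3sKO, at 71.9, 65.0 and 65.6 FPKM in Ctrl and 62.7, 56.7 and 63.4 FPKM in Gsk3sKO.

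**Figure D3:**
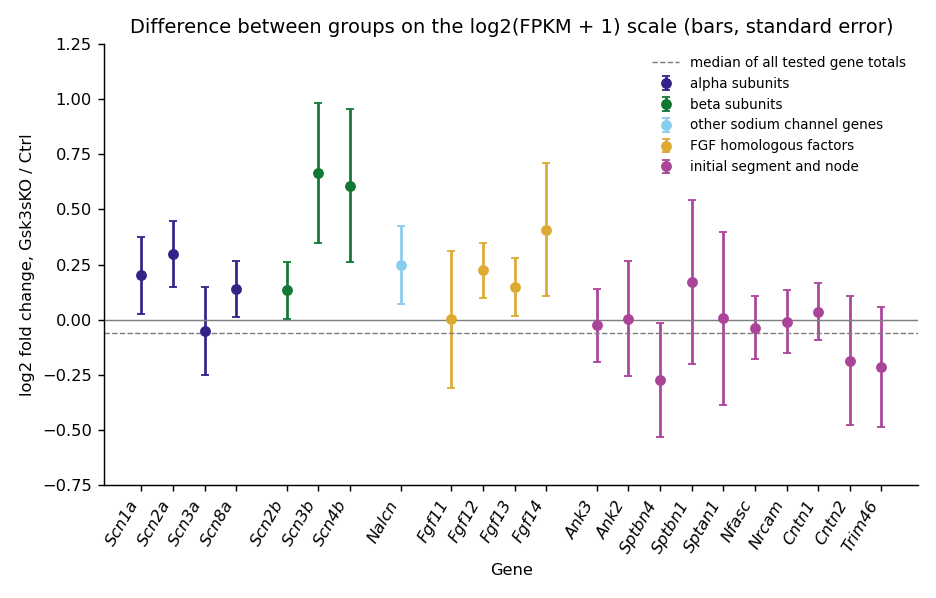
Log2 fold change of gene totals between Gsk3sKO and Ctrl on the log2(FPKM + 1) scale with its standard error from limma (bars), for sodium channel genes and their partners, with the median of all gene totals tested (-0.06) as a dashed line. Points of the alpha, beta and other sodium channel genes lie above 0 apart from Scn3a, and those of initial segment genes lie on both sides.

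Of 27 markers of excitatory and inhibitory neurons, glia and endothelial cells tested, 3 were called, all lower in Gsk3sKO. Of all gene totals, 6.56% were called and 5.2% were called lower. The part of these markers' cell types in the sodium channel values was not tested. Tbr1, a factor of deep-layer excitatory neurons, was at 26.1, 28.0 and 28.2 FPKM in Ctrl and 22.7, 21.5 and 17.6 FPKM in Gsk3sKO, and was the only 1 of 4 excitatory markers called (limma unadjusted p = 0.0283). Mog, a myelin gene, was at 3.996, 3.02 and 2.67 FPKM in Ctrl and 1.81, 0 and 0 FPKM in Gsk3sKO, the only 1 of 4 oligodendrocyte markers called (limma unadjusted p = 0.00746). C1qa, a complement gene of microglia, was at 5.18, 4.30 and 5.73 FPKM in Ctrl and 2.53, 1.51 and 3.56 FPKM in Gsk3sKO, the only 1 of 4 microglial markers called (limma unadjusted p = 0.0205). No marker of inhibitory neurons, astrocytes, endothelial cells or oligodendrocyte precursors was called.

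The mean pattern of the 7 members over the 6 libraries, each gene centred on the log2(FPKM + 1) scale, was -0.33, -0.18 and 0.08 in Ctrl and 0.07, 0.13 and 0.23 in Gsk3sKO. Ctrl replicate 1 was lowest and Gsk3sKO replicate 3 highest, and Ctrl replicate 3 was within the range of the Gsk3sKO libraries. The 5 genes with the most similar pattern, by root mean square difference over 8461 gene totals with a mean of at least 5 FPKM, were Rsl1d1 (0.0355), Tbpl1 (0.0409), Ilf2 (0.0427), Map4 (0.0431) and Paqr9 (0.0453), against a median of 0.305. Of the members themselves, Scn1a (0.102) and Scn2b (0.108) were closest to their common mean and Scn3b (0.372) and Scn4b (0.351) farthest from it. The 6 points are the libraries of both groups, and all genes of a library share its depth and scaling.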

How the data were processed

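Ribosome-associated RNA was measured in 3 Ctrl and 3 Gsk3sKO libraries, grouped by the labels. The authors deposited FPKM per transcript, and the submitters' processing notes name HISAT2 2.1.0, SAMtools 1.9, StringTie 1.3.4d and GRCm38. The strand setting is not given in the sources used here. The 3 columns of the authors' own comparison (fold, p-value and q-value) were not used, and 0 columns of library values were left out. No read counts are given: at best 29.8% to 46.4% of low values per library fell within 0.05 of a whole read, so depth is unknown and no counting interval was set. Precision is therefore judged here only from the number of libraries and their spread.

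FPKM was summed by gene identifier. Transcripts and gene totals with a mean of at least 1 FPKM over the 6 libraries were tested on log2(FPKM + 1) with limma 3.58.1 (lmFit, eBayes with trend) in R 4.3.3, 2-sided, without covariates, and adjusted over all features by the Benjamini-Hochberg method. A feature was called at an unadjusted p under 0.05. Sums and shares were compared by exact permutation tests over libraries. The model was tested on simulated data. Sequences and positions came from GENCODE M21 on GRCm38, which lacks 1 member transcript (ENSMUST00000175949). Tables and figures used Python 3.11.15, numpy 2.4.6, pandas 2.3.3 and matplotlib 3.10.9. Alternatives were another pseudocount and filter, median ratio scaling, no moderation, a replicate block and leaving out each library.

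All 7 members are named, as are their leading transcripts, those called or without overlap, Gsk3b, Drd2, in each other list the called and highest genes, and the 5 genes with the pattern most like the members'. Genes or transcripts named outside this rule were chosen after their values were seen: the other Scn1a, Scn2a, Scn3a, Scn3b and Scn8a transcripts, Fgf12, Csnk2b and Gm23935. The members and lists were chosen with earlier results of these data known. Some genes and sequences are not reported here.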

Additional observations from a re-analysis of the deposited data

How the results depend on the processing

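Read counts and depth are not known, single transcripts rest on an estimated division of reads, and 3 libraries a group cannot give an exact p under 0.1. The count of members called was 0 and became 1 (Scn3b, unadjusted p = 0.0322) with a replicate block. Deviations from the group mean had correlations over genes of -0.03, -0.01 and -0.08 between same-numbered libraries. Between libraries of other numbers they ranged from -0.03 to 0.05. With 3 libraries a group, these values cannot show whether same-numbered libraries shared a batch. The block changed no other member call. Without 1 library that count ranged from 0 to 2, the called being Scn3b and Scn4b without Ctrl replicate 3, Scn3b without Gsk3sKO replicate 1 and Scn2a without Gsk3sKO replicate 2 (unadjusted p = 0.0490). Of all transcripts, 1200 were called, 590 with a mean of at least 5 FPKM, 1917 without a filter and 878 to 1726 without 1 library. The 3 member transcripts called became 1 with a mean of at least 5 FPKM and 1 without moderation, and ranged from 1 to 5 without 1 library. Scn1a-201 and Scn2b-201, each at 0 in all libraries of 1 group, are among the 3, and Scn1a-201 was the 1 left without moderation. These counts are therefore a description only. Of the 4 steps in level from Scn2a to Scn3b, 3 held in 6 of 6 libraries when transcripts with a mean of at least 1 FPKM were summed. In Scn3a the log2 fold change of -0.05 turned to 0.027 with full-length coding transcripts, an alternative chosen after seeing the data, and ranged from -0.16 to 0.050 without 1 library, above 0 without Ctrl replicate 3 or Gsk3sKO replicate 2. With full-length transcripts the difference in share of the alpha sum was 1.16 points for Scn1a and -0.82 for Scn2a, against -0.22 and 2.62. Without 1 library these differences ranged from -0.99 to 0.25 points for Scn1a, from -0.28 to 4.45 for Scn2a and from -3.70 to 0.93 for Scn8a. The difference in the leading transcript's share ranged from -0.60 to 27.9 points for Scn8a and from -27.7 to 7.89 for Scn3b, and the log2 fold change of Scn3b-203 ranged from -1.14 to 0.65, above 0 only without Gsk3sKO replicate 3. The causes were not tested.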
